A study of Rattus norvegicus with 6 samples.

Results

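A single locus on the minus strand of chromosome 19, between positions 12652625 and 12713398, gave 9 of the 32445 circular RNAs (circRNAs) counted in rat thalamus. All circRNAs whose span lay within these bounds were taken. The locus had drawn attention because its summed reads were lower after CFA than after saline in these same libraries, so every comparison of the 2 groups below is a description and carries no test of its own. The thalamus, which relays sensory input to the cortex, was taken after 14 days from 3 rats injected bilaterally in the temporomandibular joint with 50 µL of CFA, an adjuvant that provokes lasting joint inflammation, and from 3 rats given 50 µL of saline in the same way, with the injections repeated over that time. The 6 libraries held 573696 to 1176178 circRNA reads. In the deposited table, columns of CFA replicates 1 and 2 share a starting letter that CFA replicate 3 lacks. All saline columns share yet another letter, so the letters also separate saline from CFA. No source used here says what the letters mean. The labels give no strain, sex or age. As no source used here names the genome build, positions stand as in the deposited sequence headers with 1 added to each start. No file used here links a circRNA to a gene name, so the host gene is not named and the thalamus label could not be checked against marker genes.

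A circRNA forms when the splice machinery joins the end of a downstream exon back to the start of an upstream exon, which closes the RNA into a ring. The ring has no free ends, which protects it from exonucleases, and it has no poly(A) tail. Many genes active in neurons give several rings that share a splice site and differ in the site it is joined to. A read across the back-splice junction identifies the ring. The counts per circle are taken here to be of such reads, though no source used here names the circRNA caller. On the minus strand the upstream end of a circle is its higher coordinate, where the ring's sequence begins, and the downstream end is its lower coordinate.

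The 9 circles were combinations of few ends. The upstream end at 12713398 was shared by 6 circles, that at 12702430 by 2, and that at 12691189 was used by 1. The downstream end at 12652625 was shared by 3 circles and that at 12691066 by 2, while 12702348, 12688393, 12686470 and 12711140 were used by 1 circle each. The 4 circles that held at least 5% of the locus reads were the 4 pairings of the upstream ends at 12713398 and 12702430 with the downstream ends at 12691066 and 12652625. Their junctions, 58 bases each, are printed here because they show this pairing: the 29 bases in lower case end the circle, and the 29 in capitals begin it.
814 nt circle, from 12691066 to 12713398: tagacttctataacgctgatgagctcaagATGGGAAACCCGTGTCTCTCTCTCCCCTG
681 nt circle, from 12652625 to 12713398: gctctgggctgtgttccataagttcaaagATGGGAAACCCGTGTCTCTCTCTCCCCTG
356 nt circle, from 12691066 to 12702430: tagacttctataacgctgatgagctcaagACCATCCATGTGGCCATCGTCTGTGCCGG
528 nt circle, from 12652625 to 12702430: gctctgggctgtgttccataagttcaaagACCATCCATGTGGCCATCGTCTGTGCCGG

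**Figure D1:**
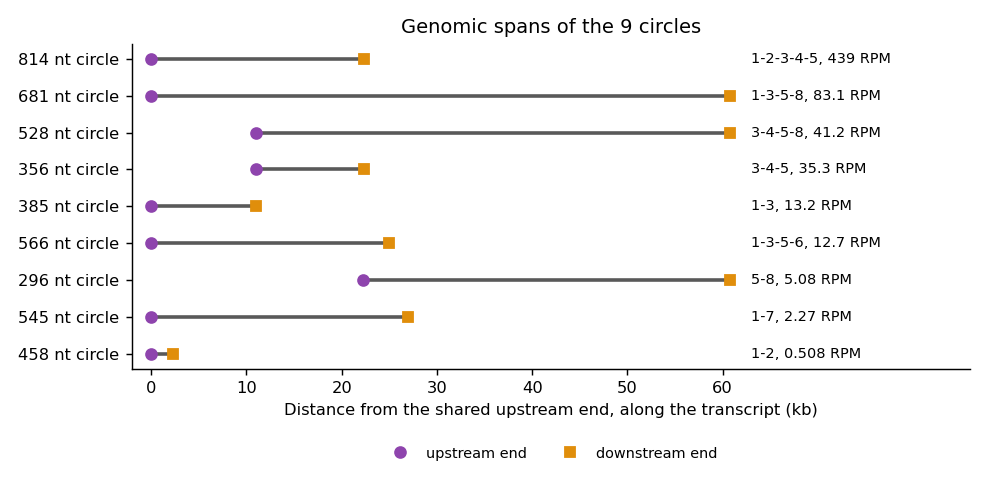
Genomic span of each of the 9 circles, as distance in kb from the upstream end that 6 of them share, with the chain of segments and the mean level over 6 libraries (RPM, reads per 1000000 circRNA reads) at the right. The 681 nt circle covers the whole locus of 60774 nt, whereas the most abundant circle, of 814 nt, covers 22333 nt.

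The deposited sequences divided into 8 segments, cut wherever another circle began or ended and numbered here along the transcript. Segment 1 (302 nt) opened the 6 circles with the shared upstream end. Segment 3 (83 nt) opened the 528 and 356 nt circles, and segment 5 opened the 296 nt circle. Segments 3 and 5 are each bounded by an upstream end of some circles and a downstream end of others, and their sequences are as long as the distance between these ends. Each is therefore 1 uninterrupted stretch, from 12702348 to 12702430 and from 12691066 to 12691189. Segment 8 (172 nt) closed the 3 circles that reach 12652625. Segments 2 (156 nt), 6 (57 nt) and 7 (243 nt) each closed 1 circle, and segment 4 (149 nt) lay inside 3 circles and at the edge of none. The files do not give exon positions, so the segments are not called exons here.

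The 814 nt circle was listed as segments 1, 2, 3, 4 and 5, whereas the 681 nt circle was listed as 1, 3, 5 and 8, without segments 2 and 4 although its span contains both. Junction reads, which the counts are taken to be, identify the junction only. No source used here says how the inner part of each sequence was set.

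Reading frames divided the circles by segment. All 3 circles listed as segments 1, 3, 5 and 8 alone (the 681, 385 and 296 nt circles) had 1 forward frame without a stop codon over the linear sequence. Of the 6 circles with segment 2, 4, 6 or 7, 0 had such a frame. The frame without a stop through segments 1, 3, 5 and 8 met its first stop, where another segment followed instead, at base 40 of segment 2, base 46 of segment 6 and base 55 of segment 7. Segment 4 held 0 stops in that frame, but its 149 nt are not a whole number of codons, so that segment 5 is then read in another frame. Among circles of the table within 10% of a member's length, 41.9% to 52.5% had an open frame. In the 681 nt circle the frame also ran on across the junction without a stop, so the ring could be read without end, as in 18.8% of all circRNAs of the table and 19.5% of those of like length. Whether any of these frames is translated was not measured. The segments absent from the 681 nt circle are printed 5′ to 3′, since they set the 6 circles that hold any of them apart from it. The stop codons of the frame open through segments 1, 3, 5 and 8 are in capitals.
Segment 2, in the 814 and 458 nt circles: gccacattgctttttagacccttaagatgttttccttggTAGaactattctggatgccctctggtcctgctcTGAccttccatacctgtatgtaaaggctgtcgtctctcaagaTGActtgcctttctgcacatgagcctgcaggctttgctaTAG
Segment 4, in the 814, 528 and 356 nt circles: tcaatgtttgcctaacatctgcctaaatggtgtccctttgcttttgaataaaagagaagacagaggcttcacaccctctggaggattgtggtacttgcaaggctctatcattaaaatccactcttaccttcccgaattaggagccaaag
Segment 6, in the 566 nt circle: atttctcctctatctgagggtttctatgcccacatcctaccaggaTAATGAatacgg
Segment 7, in the 545 nt circle: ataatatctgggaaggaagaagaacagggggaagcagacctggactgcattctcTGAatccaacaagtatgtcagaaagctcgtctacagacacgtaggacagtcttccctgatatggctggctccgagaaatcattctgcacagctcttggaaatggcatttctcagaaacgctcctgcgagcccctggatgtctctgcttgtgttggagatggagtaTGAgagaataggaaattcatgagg

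The circles of segment 1 also shared a sequence match to a miRNA seed. Among 15 miRNAs searched (bases 2 to 8 of each, matched to the reverse complement on the given strand and across the junction), 2 had a match in a circle of the locus. The sequence of rno-miR-125b-5p, a miRNA abundant in brain, is taken from RefSeq (GRCr8), with its seed in capitals.
rno-miR-125b-5p: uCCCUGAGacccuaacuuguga
Its match, CTCAGGG, began at base 151 of segment 1 in all 6 circles that hold it. Among circRNAs within 10% of their lengths, 3.5% to 7.48% held this match. The other match was to rno-miR-7a-5p, at base 405 of the 545 nt circle, as in 4.83% of circRNAs of like length. A match of this kind does not show binding.

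The locus held 633 ± 267 RPM over the 6 libraries (SD) and stood at rank 329 of 9564 loci by mean level. It was one of 841 loci with 9 or more circRNAs. No circle of the plus strand overlapped it, and the nearest other circles of the minus strand lay 76646 nt below and 81898 nt above it. The 814 nt circle led with 69.9% of the locus reads and ranked 361 among all circRNAs, and it was longer than 97.4% of them. In the 3290 loci of at least 100 reads that held more than 1 circRNA, the leader's median was 61.8%. The 681 nt circle held 13.1%, the 528 nt circle 6.50% and the 356 nt circle 5.35%, together 94.8% with the leading one.

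The circles were ordered by their mean level over the 6 libraries of both groups, and each was compared with the next one within libraries. The order and the test use the same libraries, so the p-values are a description. The 814 nt circle exceeded the 681 nt circle in 6 of 6 libraries, by 356 ± 148 RPM (SD; exact two-sided sign-flip permutation test over 6 libraries, p = 0.0312, the smallest possible; 0.25 after Benjamini-Hochberg adjustment over 8 neighbouring pairs). The 681 nt circle exceeded the 528 nt circle in 5 of 6 libraries, by 41.9 ± 49.4 RPM (exact p = 0.0938, adjusted 0.25). Most of this difference lay in the saline libraries, with means of 125.2 and 43.2 RPM, against 41.1 and 39.3 RPM in the CFA libraries. The 528 and 356 nt circles differed by less than their spread, at 5.94 ± 14.1 RPM (exact p = 0.312, adjusted 0.6). The 356 nt circle exceeded the 385 nt circle in 5 of 6 libraries, by 22.1 ± 14.0 RPM (exact p = 0.0625, adjusted 0.25). Among the 5 lowest circles no neighbours differed beyond their spread (exact p from 0.375 to 0.938). After adjustment 0 of the 8 pairs passed. With 6 libraries and 8 pairs, a pair that alone reaches the smallest possible p cannot pass, so nothing is read from this count.

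In these libraries the balance of reads between the downstream ends differed by upstream end. From the upstream end at 12713398, reads of the circle closed at 12691066 exceeded those of the circle closed at 12652625 by 4.55 to 7.31 times, in each of the 6 libraries. From the upstream end at 12702430 the same ratio was 0.371 to 1.25, above 1 in 3 of 6 libraries. The ratio of these ratios was above 1 in 6 of 6 libraries, with a median of 6.15 and a range from 3.74 to 15.5. This comparison was chosen after the values were seen and was not tested. The most abundant circle set which downstream end stood in the numerator, which favours a ratio of ratios above 1.

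After CFA the 814 nt circle had 214, 117 and 284 reads in replicates 1, 2 and 3, or 326, 180 and 314 RPM. After saline it had 402, 592 and 573 reads, or 701, 503 and 612 RPM. Each CFA library lay below each saline library. Group means were 273 ± 81.4 and 605 ± 98.9 RPM (SD, n = 3 each), and the log2 fold change fitted over all circRNAs was -1.16 ± 0.31 (SE). In bulk tissue, fewer cells that make these circles and fewer circles per cell cannot be told apart.

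The 681 nt circle, the one with the endless frame, stood at 53.3, 24.6 and 45.4 RPM in CFA replicates 1, 2 and 3, from 16 to 41 reads. In the saline replicates it stood at 153.4, 87.6 and 134.6 RPM, from 88 to 126 reads. Again the groups did not overlap. Means were 41.1 ± 14.9 and 125.2 ± 33.9 RPM (SD, n = 3 each), with a fitted log2 fold change of -1.61 ± 0.43 (SE).

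The 528 nt circle shares the downstream end of the 681 nt circle and had 51.8, 30.7 and 35.4 RPM in the CFA replicates, from 20 to 34 reads, and 31.4, 29.8 and 68.4 RPM in the saline replicates, from 18 to 64 reads. The groups overlapped, and the fitted log2 fold change was -0.18 ± 0.53 (SE). The 356 nt circle, which shares the downstream end of the 814 nt circle, had 30.5, 35.3 and 44.3 RPM in the CFA replicates, from 20 to 40 reads, and 38.4, 11.1 and 52.4 RPM in the saline replicates, from 13 to 49 reads. These groups overlapped too, with a fitted log2 fold change of 0.10 ± 0.56 (SE). The sign was not stable for either of these circles: without saline replicate 3 the 528 nt circle stood at 0.35, and without saline replicate 2 the 356 nt circle stood at -0.32.

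**Figure D2:**
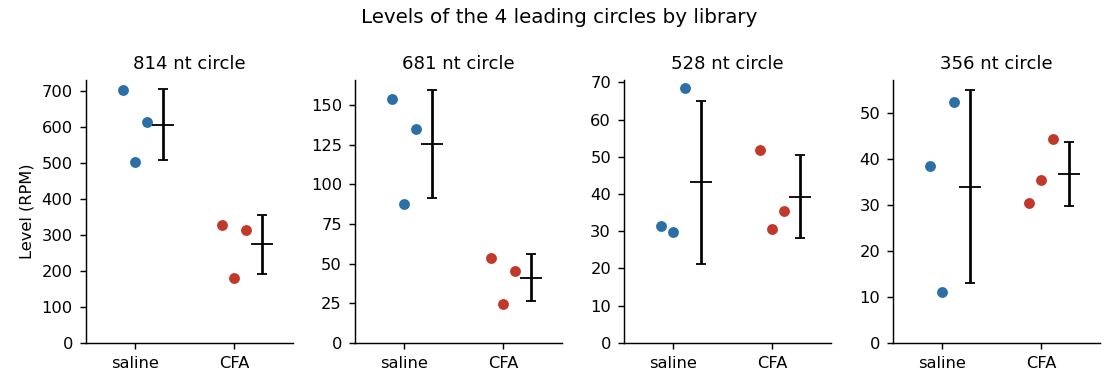
Level in RPM of the 4 leading circles in each library (points; blue saline, red CFA, in replicate order), with the group mean and SD (bar). The 814 and 681 nt circles show no overlap, with the CFA libraries lower, while the groups overlap for the 528 and 356 nt circles.

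The 5 other circles held 161 reads in all. The 385 nt circle of segments 1 and 3 counted 4, 7 and 6 in the CFA libraries and 9, 18 and 23 in the saline libraries, or 7.83 ± 2.54 and 18.5 ± 5.24 RPM (SD, n = 3 each), without overlap. The 566 nt circle had 7, 0 and 14 reads against 19, 20 and 0. The 296 nt circle had 15, 0 and 4 against 0, 0 and 3, so that most of its reads came from CFA replicate 1. The 545 nt circle had 6 reads in CFA replicate 3 and 4 in saline replicate 1. The 458 nt circle had 2 reads in CFA replicate 1 and none elsewhere. The table lists no count of 1, and a count of 0 allows up to 2.55 RPM in the deepest library and 5.23 RPM in the smallest, for counting error only.

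Of the 9 circles, 8 had at least 10 reads and were fitted. By the quasi-likelihood test of edgeR, adjusted after Benjamini-Hochberg, 0 of the 8 passed, where 0.125% of all 22426 circRNAs tested did. At an unadjusted p below 0.05 the 814 and 681 nt circles stood, 2 of 8 in edgeR and 2 of 8 in DESeq2, against 2.68% of all circRNAs in edgeR and 1.69% in DESeq2. In 3 of the 9 circles each CFA library lay below each saline library, and in 0 each lay above, where 3.42% of the circRNAs tested were lower without overlap. Of the 8 circles fitted 5 had a log2 fold change below 0, as did 52.6% of all circRNAs tested, and their median was -0.51 where that of all circRNAs tested was -0.05. Nothing is read from these counts, since the locus was chosen on this contrast.

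**Figure D3:**
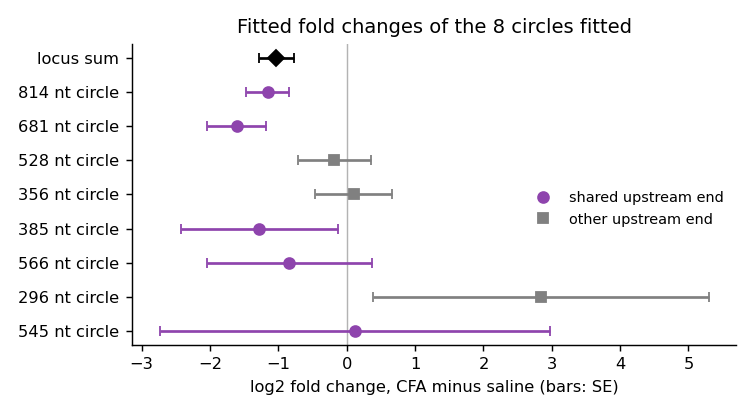
Fitted log2 fold change (CFA minus saline) with its SE for the locus sum (diamond) and the 8 circles fitted, marked by upstream end. The circles of 814 and 681 nt lie at -1.16 and -1.61, and the SE of the sparse 296 and 545 nt circles exceeds 2.

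The circles were also summed by their ends, a split chosen after the values were seen. Over the 6 circles with the upstream end at 12713398, the CFA libraries held 399, 215 and 389 RPM. The saline libraries held 910, 623 and 771 RPM. The groups did not overlap, with means of 334 ± 103.4 and 768 ± 143 RPM (SD, n = 3 each). Whole loci lower after CFA without overlap were 2.99% of those tested. The 814 nt circle supplied 2182 of the 2730 reads of this sum. Of the 6 circles, only those of 814, 681 and 385 nt were lower after CFA without overlap, as were 3.42% of all circRNAs tested. No other circle of the locus was, so the split gathers all that were. The 566 nt circle overlapped, the 545 nt circle had means of 2.21 and 2.32 RPM, and the 458 nt circle had reads in 1 CFA library alone. Without the 814 nt circle the sum was 60.9 ± 22.1 RPM after CFA and 163 ± 44.8 RPM after saline, still without overlap, and 409 of its 548 reads were of the 681 nt circle. The 3 circles with other upstream ends summed to 105, 66.0 and 84.1 RPM after CFA and to 69.7, 40.8 and 123.9 RPM after saline. These values overlapped, with means of 85.1 ± 19.6 and 78.2 ± 42.2 RPM (SD, n = 3 each). Split by downstream end instead, the 2 circles closed at 12691066 had means of 310.0 ± 82.4 (CFA) and 639 ± 114 RPM (saline), without overlap. Of their 2349 reads, 2182 were of the 814 nt circle. The 3 closed at 12652625 held 89.5 ± 36.5 and 169 ± 46.4 RPM, with overlap. Of their 634 reads, 409 were of the 681 nt circle. On the log2 scale the ratio of group means was -1.20 for circles with the upstream end at 12713398 and 0.12 for the others, against -1.04 and -0.92 for the 2 downstream ends. The difference between the sets of circles was not tested. Without the leading circle, the sum over the other 8 was 145.9 ± 39.9 RPM after CFA and 241 ± 69.5 RPM after saline, and the groups overlapped.

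**Figure D4:**
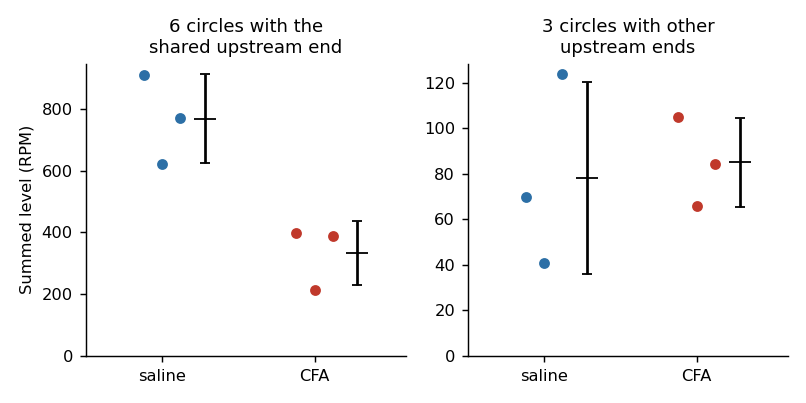
Summed level in RPM per library of the 6 circles that share the upstream end (left) and of the 3 with other upstream ends (right), with the group mean and SD (bar). On the left the CFA libraries lie at 215 to 399 RPM and the saline libraries at 623 to 910 RPM, and on the right the groups overlap.

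Shares within the locus were computed from the same counts as these sums, so they describe the split again and are no second showing of it. Circles with the upstream end at 12713398 took 79.2%, 76.5% and 82.2% of the locus reads after CFA and 92.9%, 93.9% and 86.2% after saline. The 95% Wilson intervals, which cover counting error only, ran from 78.3% to 85.5% in CFA replicate 3, the highest CFA library, and from 83.7% to 88.3% in saline replicate 3, the lowest saline library, so these 2 intervals overlap. The 814 nt circle took 65.0 ± 1.33% after CFA and 71.9 ± 3.72% after saline, and the 681 nt circle 9.64 ± 0.914% and 14.6 ± 1.29% (SD, n = 3 each), both without overlap. The 356 nt circle took 9.33 ± 3.26% and 3.81 ± 2.09%, higher in each CFA library. Its nearest libraries lay at 6.04% (CFA replicate 1) and 5.85% (saline replicate 3). For the 814, 681 and 356 nt circles alike, the 95% intervals of the nearest CFA and saline libraries overlapped. How often such shares separate at other loci was not counted. The 528 nt circle took 9.57 ± 1.82% and 5.11 ± 2.28%, with overlap. Shares of a locus sum to the whole, so a lower share of some circles sets a higher share of the others.

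**Figure D5:**
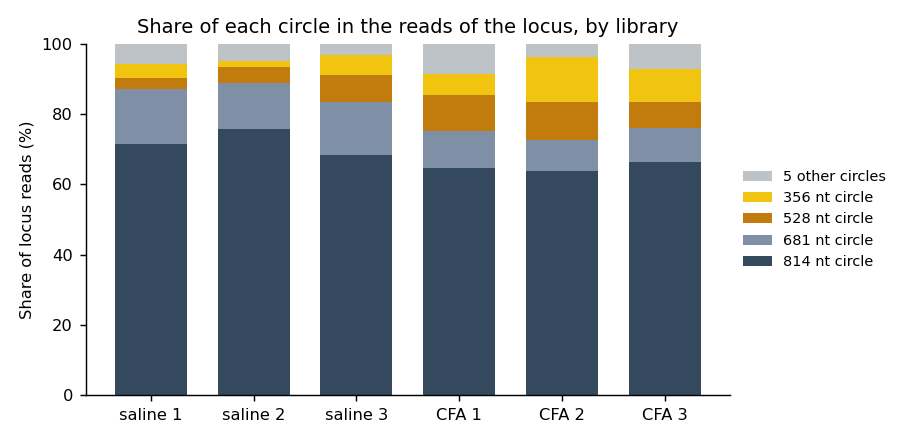
Share (%) of the reads of the locus held by each of the 4 leading circles and by the 5 others together, in each library. The dark bars of the 814 nt circle end at 68.4% to 75.8% in saline and at 63.9% to 66.5% in CFA libraries.

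The whole locus held 504, 281 and 473 RPM in CFA replicates 1, 2 and 3 and 980, 664 and 895 RPM in saline replicates 1, 2 and 3. CFA replicate 2 and saline replicate 2 were the lowest of their groups. Each CFA library lay below each saline library, as in 2.99% of the 7581 loci tested. The locus sum was not called by the quasi-likelihood test of edgeR (adjusted p = 1), which called 0.0132% of the loci. Nothing is read from this either, since the locus was chosen on this contrast. The within-group SD of the locus on the log2(RPM + 1) scale was 0.39, larger than in 67.2% of 528 loci within 2-fold of its mean level, whose median was 0.3.

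Of 1644 other loci with reads in all 6 libraries and at least 100 RPM, the 3 whose pattern was most like that of the locus were ranked by Pearson's r of log2(RPM + 1) over the 6 libraries, given as a description since the libraries and the choice are shared. A locus of 7 circles on chromosome 12, 16038087 to 16056091 on the plus strand, had r = 0.95. It ranged from 147 to 190 RPM after CFA and from 186 to 213 RPM after saline. A locus of 4 circles on chromosome 1, 174605176 to 174615437 on the minus strand, had r = 0.94, with 417 to 564 RPM after CFA and 551 to 871 RPM after saline. The last, of 24 circles on chromosome 4, 177261696 to 177321326 on the minus strand, also had r = 0.94, with 181 to 203 and 211 to 248 RPM. By rank order the chromosome 1 locus was less alike, with a Spearman rho of 0.77, against 0.94 for chromosome 12 and 1.0 for chromosome 4. In the chromosome 12 and chromosome 1 loci the groups overlapped, and in the chromosome 4 locus they did not.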

How the data were processed

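Thalamus RNA of 3 CFA and 3 saline rats was sequenced, and groups and replicate numbers come from the sample titles. Per the labels' protocols, RNA was purified on poly-T beads, which would lose most circRNAs, and amplified by PCR without molecular identifiers. The submitters' processing notes name DESeq2 1.20.0, featureCounts 1.5.0-p3, StringTie 1.3.3b and HISAT2 2.0.5. Neither the circRNA caller nor the genome build is given in the sources used here.

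Per the file headers, the authors deposited a read count per circRNA and library, with a normalized value headed TPM. That value is RPM by its behaviour, since 1 read is worth the same for every circRNA of a library, and the deposited RPM were not used. RPM here are counts over the table's own totals, times 1000000. The lowest deposited count above 0 was 2.

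circRNAs with at least 10 counts over the 6 libraries (22426), and loci, which are runs of circRNAs overlapping on 1 strand (7581 tested), were fitted with edgeR 4.0.16 in R 4.3.3 (TMM, robust quasi-likelihood, no covariates, Benjamini-Hochberg, threshold 0.05) after tests on simulated data. Each SE is approximate, the log2 fold change divided by the square root of F. Segments were cut with shared runs of 25 nt. The segments, their reading frames and the split of the circles by their ends were chosen after the values were seen. Circles with at least 5% of the locus reads were described in full, and the others by their counts. The planned match to proteins for host gene names and marker lists was not run, for want of a protein table, and rno-miR-124-3p had no entry. Same-numbered libraries did not deviate together (r from -0.07 to 0.02), so no pairing was assumed. The members and lists were chosen with earlier results of these data known. Alternatives were other normalizations and filters, DESeq2 1.42.0, a fit that is not robust, the replicate block and leaving out each library.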

Additional observations from a re-analysis of the deposited data

How the results depend on the processing

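The log2 fold change of the locus sum (CFA minus saline, -1.03 ± 0.26 SE) kept its sign in all 14 alternatives and moved by less than the spread between replicates, from -1.20 without CFA replicate 1 to -0.81 without CFA replicate 2. The locus sum was called in 0 of them, with an adjusted p of 0.103 at lowest (replicate block, edgeR). That setting called 26 of 7581 loci, against 1 without the block. Nothing is read from these calls, since the locus was chosen on this contrast. With the replicate block the log2 fold change was -1.06, and 0 of 8 circles were called with the block, as without it. The number called was 0 in the other alternatives as well, with 6 to 9 circles tested. In each, 2 circles had an unadjusted p below 0.05, as did 1.41% (edgeR's filterByExpr) to 3.31% (without saline replicate 3) of all circRNAs tested. The share of all circRNAs called ran from 0% to 0.201%. The 814 nt circle ranged from -1.31 to -0.91 and the 681 nt circle from -1.84 to -1.33 over all alternatives. With 1 library left out, the 528 nt circle (-0.18) ranged from -0.44 to 0.35, turning sign without saline replicate 3. The 356 nt circle (0.10) ranged from -0.32 to 0.65, turning sign without CFA replicate 3 (-0.08) and without saline replicate 2 (-0.32). The alternatives for sums and shares by upstream end were added after the data were seen. The log2 ratio of mean RPM of the 3 circles with other upstream ends turned to -0.06 without CFA replicate 1 and -0.19 without saline replicate 2, and reached 0.62 at most. For circles with the upstream end at 12713398 it stayed between -1.35 and -0.96. Their share of locus reads differed by -11.7 percentage points, from -14.1 to -10.2 over the alternatives. The share of the leading circle differed by -6.87 points, from -8.63 to -4.92 when 1 library was left out. With 5 libraries the sign-flip test of the leading pair of circles gave p = 0.0625 (exact permutation test), the smallest that 5 libraries allow. Depth limits the 5 lesser circles most, with 161 reads in all over the 6 libraries.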
